A study of Mus musculus with 6 samples.

Results

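The 10 tetraspanin genes Cd63, Cd9, Cd81, Cd82, Cd37, Cd53, Cd151, Tspan3, Tspan13 and Tspan33, whose proteins are known from endosomes, exosomes and the leukocyte surface, were followed in cDC1s, the type 1 conventional dendritic cells, which present captured antigen to CD8 T cells. These members were taken by name from a list that was chosen with earlier results of these data known. They are 10 of 32285 features in the table of read counts. All 10 were found and all 10 passed the filter on low counts, as did 12568 genes in all. The cDC1s had been isolated by cell sorting from mLN tissue of C57BL/6 mice, 24 h after 50 µg of house dust mite extract (HDM) had been given into the nose. There were 3 libraries of wild-type cells (WT) and 3 libraries of cells of the genotype Vps33BdeltaDC, a conditional knock-out of Vps33b (KO), and every mouse had received HDM. The driver of the deletion, the age of the mice, and whether each library stands for an animal of its own are not stated in the sources used. The p-values therefore rest on a spread between libraries that may be technical only.

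Tetraspanins are small proteins that cross the membrane repeatedly and gather integrins, proteases and MHC molecules into membrane domains. CD63 cycles through late endosomes and lysosomes, and CD9, CD63 and CD81 are widely used as marker proteins of exosomes, the vesicles released when multivesicular endosomes fuse with the plasma membrane. CD37 and CD53 are largely restricted to leukocytes, and TSPAN33 belongs to the TspanC8 group, which escorts the protease ADAM10 to the cell surface. VPS33B, the protein encoded by the deleted gene, acts with VIPAS39 in membrane traffic of late endosomes and lysosomes. The comparison asks whether the transcripts of these tetraspanins differ in HDM-exposed cDC1s when Vps33b is deleted.

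Library totals ran from 11755944 to 18450678 counts. Vps33b was at 16.4 ± 2.69 CPM in WT, and in KO at 6.77 ± 1.66 CPM (SD, n = 3 each; CPM is the count relative to the TMM-scaled library size), and every KO library lay below every WT library. An exact two-sided permutation test of Vps33b over the 6 libraries gave p = 0.1, which is the lower limit for groups of 3. In the edgeR fit over all genes, the log2 fold change of Vps33b, KO minus WT, was -1.28, with an adjusted p of 0.834. Vps33b itself was therefore not called by the test applied to the members below. Vipas39 was at 55.4 ± 6.83 CPM in WT and, in KO, at 56.5 ± 1.01 CPM. All 10 cDC1 markers examined had counts in every library and summed to 2830 to 3000 CPM in WT and 2620 to 3150 CPM in KO, although Xcr1, a defining receptor of cDC1s, was at 13.1 to 44.6 CPM in WT and at 5.72 to 11.4 CPM in KO. Irf8 and Flt3, at means of 1480 and 779 CPM, were the largest of these markers. Of the cDC1 markers 8 of 10 had a log2 fold change, KO minus WT, below 0 (median -0.29). Of the markers of mature dendritic cells 9 of 10 had one above 0 (median 0.27), and none was called after adjustment. At an unadjusted edgeR p under 0.05, 3 cDC1 markers were lower and 0 higher, and 2 mature markers were higher and 0 lower. Of all genes 3.06% were lower and 2.71% higher. Without overlap between groups, 2 cDC1 markers were lower and 1 mature marker was higher, beside 5.19% and 5.46% of all genes. The mature dendritic cell markers summed to 16100 to 17300 CPM in WT and to 16900, 20000 and 22700 CPM in KO replicates 1, 2 and 3. The 14 monocyte or macrophage markers had sums of 403, 218 and 231 CPM in WT replicates 1, 2 and 3 and of 204, 203 and 745 CPM in KO replicates 1, 2 and 3, so that KO replicate 3 stood apart. The 10 B-cell markers summed to at most 51.3 CPM in any library.

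Tspan3, Cd81 and Cd63 were the most abundant members. Levels of different genes were compared per length, as RPKM (CPM per kilobase of the union of exons). The order of the genes therefore depends on the exon lengths used. Tspan3 and Cd81 had means over the 6 libraries of 158 and 157 RPKM, and each was the higher of the pair in 3 of 6 libraries. Cd63 followed at 110 RPKM. It was below Cd81 in 6 of 6 libraries, although the ranges met (90.2 to 129 RPKM for Cd63 and 128 to 197 RPKM for Cd81). By mean RPKM, Tspan3 ranked 291, Cd81 294 and Cd63 428 among the 12568 genes tested.

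A middle group was formed by Cd9, at a mean of 63.5 RPKM, and by Tspan33, Cd82 and Tspan13, at 45.9, 37.6 and 34.9 RPKM. Cd9 lay below Cd63 without overlap of the ranges, and was above Tspan33 in 6 of 6 libraries. Without the division by length, Cd9 was below Tspan33 (means of 129.7 and 238.5 CPM). Cd82 was above Tspan13 in 3 of 6 libraries, so these neighbours could not be ordered. The leukocyte tetraspanins were lower, Cd53 at 14.6 RPKM and Cd37 at 10.2 RPKM, and Cd53 was the higher in 6 of 6 libraries. By mean CPM their order was the reverse, at 25.49 for Cd53 and 35.75 for Cd37. It thus rests on the exon lengths used, 1742 bases for Cd53 and 3522 for Cd37. Cd151, a partner of laminin-binding integrins, had the lowest mean of the 10, at 7.24 RPKM, and was below Cd37 in 5 of 6 libraries.

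**Figure D1:**
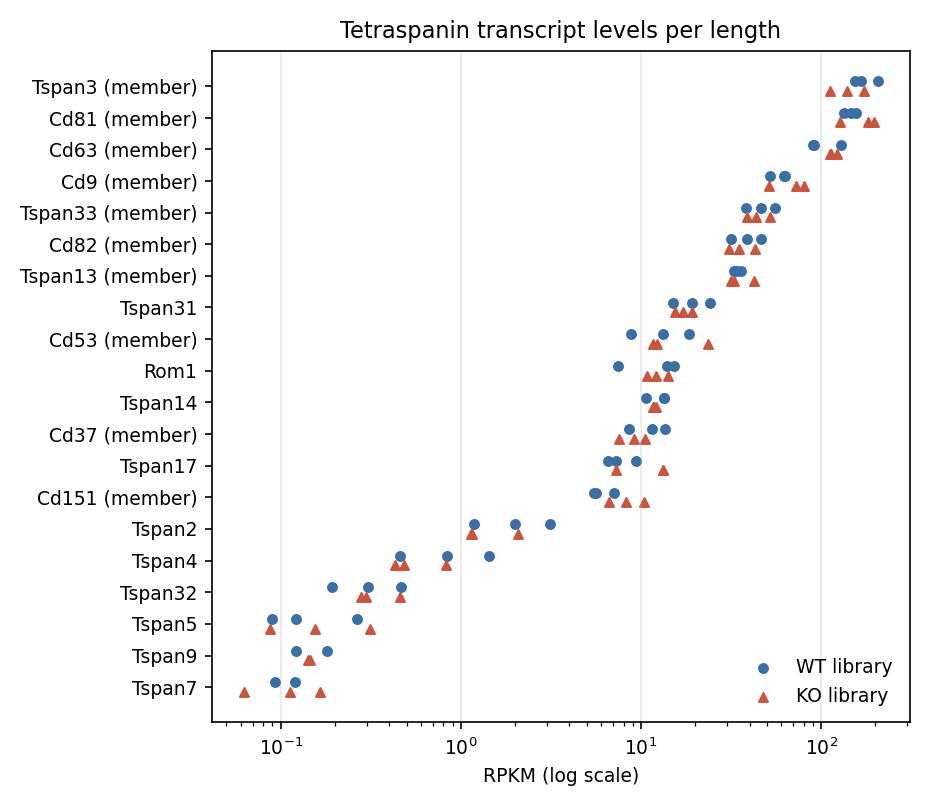
Level per length (RPKM, log axis) of the 20 tetraspanin genes tested, with a point for each library (circles WT, triangles KO), ordered by the mean over 6 libraries and with the 10 genes of the opening list marked as members; libraries at 0 (of Tspan7 and Tspan9) are not drawn. Tspan3, Cd81 and Cd63 lie at 90.2 RPKM or more in every library, while Tspan31, the highest of the other tetraspanins, reaches 24.1 RPKM.

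The remaining tetraspanin genes were lower than Tspan13 by mean RPKM, and some were without counts. They were not all below the lowest members. Tspan31, at a mean of 18.3 RPKM, was above Cd53, Cd37 and Cd151. Rom1 (12.3 RPKM) and Tspan14 (12.2 RPKM) were above Cd37 and Cd151, and Tspan17 (9.47 RPKM) was above Cd151. Of 21 others in the table, 10 passed the filter, 5 had a mean of 5 CPM or more, and 4 (Tspan1, Tspan8, Tspan11 and Upk1b) had 0 counts in all 6 libraries, which allows up to 0.163 to 0.255 CPM (3 counts of a library's total, counting error only). Tspan31 was at 19.4 ± 4.50 RPKM in WT and 17.2 ± 1.80 RPKM in KO. Its exons overlap Cdk4, on the opposite strand, over 29.2% of their length, and the sources used do not state a strand setting, so this level is uncertain. Rom1 followed at 12.2 ± 4.21 RPKM in WT and 12.3 ± 1.62 RPKM in KO, and Tspan2 was at 2.10 ± 0.966 and 1.46 ± 0.544 RPKM.

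On chromosome 7, members lay near relatives that were nearly silent. Cd81 (143052739 to 143067934, plus strand, mm10) starts 33.1 kb after the end of Tspan32, which was at 0.322 ± 0.137 RPKM in WT and 0.345 ± 0.0992 RPKM in KO. Cd151 (141467392 to 141471473, plus strand) ends 3.8 kb before Tspan4, which was at 0.913 ± 0.492 RPKM in WT and 0.582 ± 0.218 RPKM in KO. Opposite-strand genes overlap 13.4% of the exon bases of Tspan4 (Chid1) and 4.3% of those of Tspan32 (Tspan32os). On chromosome 2, Cd82 and Tspan18 lie 84.6 kb apart, and Tspan18 did not pass the filter.

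Of the TspanC8 group, Tspan33 (chromosome 6, 29694222 to 29718559) was the highest, at 46.9 ± 8.72 RPKM in WT and 45.0 ± 6.71 RPKM in KO. Tspan14 was at 12.5 ± 1.65 RPKM in WT and 11.8 ± 0.193 RPKM in KO, and Tspan17 at 7.73 ± 1.51 and 11.2 ± 3.43 RPKM. Tspan5 did not exceed 0.314 RPKM in any library, and Tspan10 and Tspan15 did not pass the filter. Adam10, the protease that this group escorts, was at 24.3 ± 2.99 RPKM in WT and 21.3 ± 2.22 RPKM in KO, with a log2 fold change, KO minus WT, of -0.19 ± 0.14 (SE). Neither Adam10 nor Tspan33 (-0.06 ± 0.16) passed the test described next, and the Tspan33 value became 0.08 when WT replicate 3 was left out, 0.03 when KO replicate 1 was left out and 0.00 with an offset for gene length.

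No member passed the test of KO against WT. By edgeR's quasi-likelihood test with Benjamini-Hochberg adjustment over all 12568 genes, 0 of 10 members had an adjusted p under 0.05, against 0.0% of all genes, and 0 of 10 had an unadjusted p under 0.05, against 5.77% of all genes. The values of the 3 WT and 3 KO libraries overlapped for all 10 members, while they did not overlap for 10.6% of all genes. DESeq2 called 10 of the 12568 genes (0.0796%) and limma-voom 0, and the edgeR test without a filter called 3 genes (0.0163% of 18410), none of them a member. The log2 fold changes of the members lay between -0.32 and 0.46, 6 above 0 and 4 below, with a median of 0.11, beside 50.6% of all genes above 0 and an overall median of 0.004. Leaving out KO replicate 2 gave a median of 0.00, and leaving out KO replicate 3 gave -0.04.

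**Figure D2:**
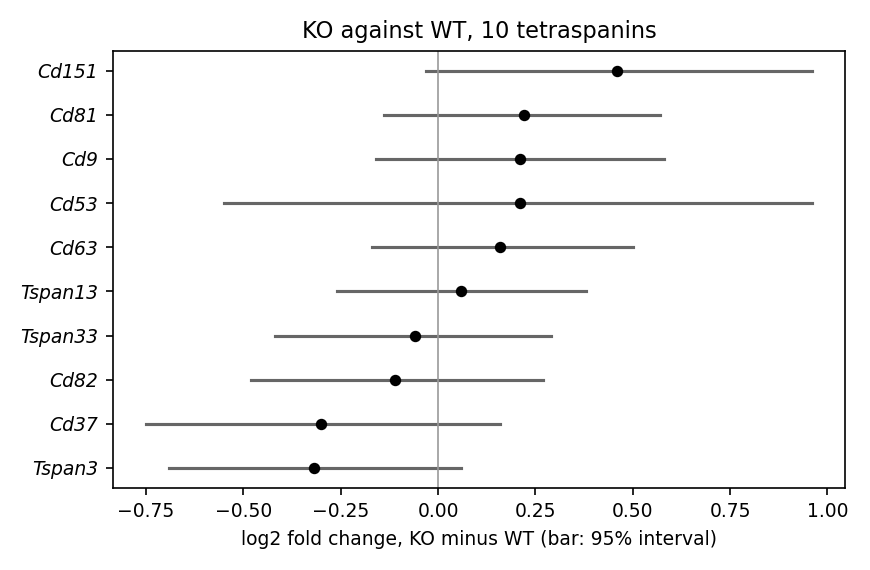
Log2 fold change of each member, KO minus WT (points), with its 95% interval from the edgeR fit (bars), ordered by size. Every interval includes 0, the values run from -0.32 for Tspan3 to 0.46 for Cd151, and the intervals of Cd53 and Cd151 reach 0.96.

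Among the exosome marker genes, Cd63 (chromosome 10, 128900989 to 128912822) was at 335, 477 and 332 CPM in the WT libraries and at 412, 450 and 417 CPM in the KO libraries, in replicate order. The highest value was that of WT replicate 2, above all 3 KO libraries, while the other WT libraries lay below them. Cd63 averaged 381 ± 82.6 CPM in WT, and 426 ± 20.5 CPM in KO, which gave a log2 fold change of 0.16 ± 0.15 (95% interval -0.17 to 0.50, edgeR adjusted p = 0.902). Leaving out WT replicate 2 gave 0.35, whereas leaving out WT replicate 1 gave 0.08 and leaving out WT replicate 3 gave 0.07. In bulk RNA, fewer cells of a type and less RNA per cell cannot be told apart.

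Cd81, which encodes a partner of integrins, was at 384, 451 and 419 CPM in the WT libraries and at 367, 524 and 566 CPM in the KO libraries. KO replicates 2 and 3 exceeded every WT library and KO replicate 1 lay below every WT library. The group means were 418 ± 33.6 and 486 ± 105 CPM, and the log2 fold change was 0.22 ± 0.16 (95% interval -0.14 to 0.57, edgeR adjusted p = 0.862). It was 0.38 without KO replicate 1, with an adjusted p of 0.251, the lowest of any member under any alternative, and 0.09 without KO replicate 3.

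Cd9 (chromosome 6, 125460266 to 125494791, minus strand) showed the same arrangement of libraries. It was at 106, 127 and 128 CPM in WT and at 105, 164 and 148 CPM in KO, again with KO replicates 2 and 3 highest and KO replicate 1 lowest. The log2 fold change was 0.21 ± 0.17 (95% interval -0.16 to 0.58, edgeR adjusted p = 0.884), 0.38 without KO replicate 1 and 0.06 without KO replicate 2. KO replicates 2 and 3 also held the highest summed levels of the mature dendritic cell markers (20000 and 22700 CPM, against 16100 to 17300 CPM in the other libraries). Singly, Ccr7, Fscn1, Ccl22, Cd80, Cd86, Socs2 and Cd200 were highest in these libraries. Cd40 and Relb were not, and Il12b was at 1158 CPM in both KO replicate 2 and WT replicate 2. The part of these transcripts in the values of Cd81 and Cd9 was not tested. Opposite-strand genes overlap 10.7% of the exon bases of Cd9 (Gm26728) and 3.6% of those of Cd81 (R74862).

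**Figure D3:**
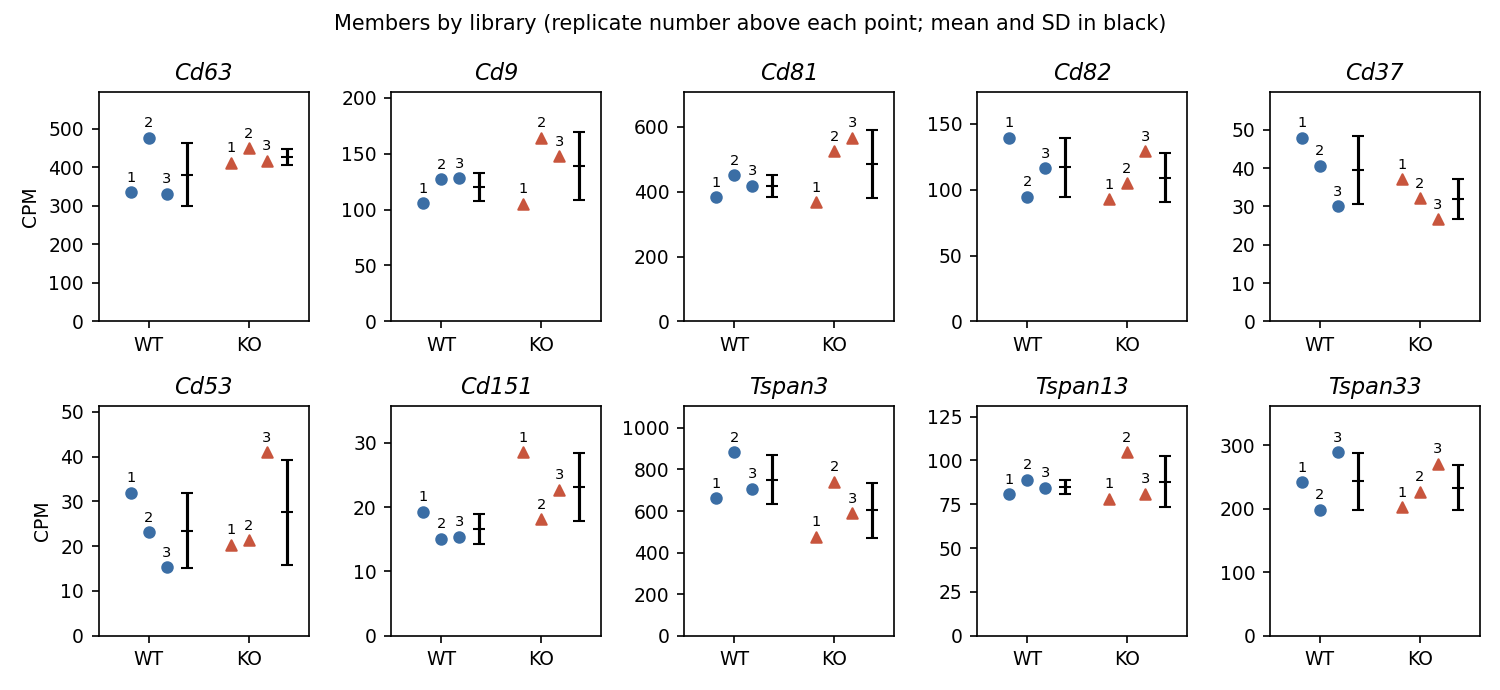
Level of each member in each library (CPM, linear axes from 0; circles WT, triangles KO, replicate numbers above the points), with the mean and SD of each group in black. The WT and KO values overlap for every member, KO replicate 1 is the lowest library for Cd9, Cd81, Cd82, Tspan3 and Tspan13, and KO replicate 3 is the highest for Cd53 and Cd81.

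Over the 6 libraries, Cd9 and Cd81 had the most similar profiles of all 45 pairs of members. Their centred log2 CPM values differed by a root mean square of 0.0888, and the next closest pair, Cd82 and Tspan33, differed by 0.152. Cd37 and Cd53, both leukocyte tetraspanins, were 43rd of the 45 pairs, at 0.533. Cd53, the member that varied most, was in every pair from rank 39 to rank 44, so this place is not particular to Cd37. These are descriptions over 6 libraries that share their sorting and sequencing, with no test.

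The sequences upstream of Cd9, Cd81 and Cd53 are shown to compare the promoters of that closest pair with that of the member that varied most. They come from RefSeq (GRCm38.p6), are read 5′ to 3′ on the strand of the gene, and end at the base before the first exon of the gene in GENCODE M21. Capitals mark GC boxes (GGGCGG, or CCGCCC on the other strand), the motif bound by Sp1-family factors.
Cd9, chr6:125494792-125494911, minus strand: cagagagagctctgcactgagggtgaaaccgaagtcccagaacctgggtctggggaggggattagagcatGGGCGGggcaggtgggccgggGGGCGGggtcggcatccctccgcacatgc
Cd81, chr7:143052619-143052738, plus strand: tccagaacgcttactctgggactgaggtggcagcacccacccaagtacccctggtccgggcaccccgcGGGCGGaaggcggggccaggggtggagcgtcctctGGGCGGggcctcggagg
Cd53, chr3:106790150-106790269, minus strand: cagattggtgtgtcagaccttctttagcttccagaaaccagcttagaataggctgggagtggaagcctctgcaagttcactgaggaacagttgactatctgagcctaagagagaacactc
The stretches of Cd9 and Cd81 hold 2 GC boxes each and that of Cd53 holds 0. In windows of 300 bases, from 250 before to 50 after each RefSeq start, 7 of 10 members had a GC box in at least 1 window (8 of 14 windows), beside 35.7% of 32851 mouse windows. Those without were Cd53, Cd63 and Tspan3. Cd151 and Cd37, which varied most after Cd53, were among those with a GC box. The ETS core (GGAAGT or ACTTCC), bound by ETS-family factors such as PU.1, was found in windows of 4 of 10 members (4 of 14 windows: Cd37, Cd53, Cd63 and Cd82), beside 23.8% of all windows. Both motifs were chosen after the values were seen, and a match describes the letters only.

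Cd82 (chromosome 2, 93419111 to 93463140, minus strand), known to interact with MHC class II molecules in endosomes, was at 139, 94.8 and 116 CPM in the WT libraries and at 92.6, 105 and 129 CPM in the KO libraries. The library of WT replicate 1 was the highest and that of KO replicate 1 the lowest, and the groups overlapped nearly in full, with a log2 fold change of -0.11 ± 0.17 (95% interval -0.48 to 0.27, edgeR adjusted p = 0.946). The value was 0.04 without WT replicate 1. Cd151 was at 19.3, 15.1 and 15.4 CPM in WT and at 28.5, 18.1 and 22.7 CPM in KO.

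That made Cd151 the member with the largest difference and the smallest p. Only WT replicate 1 lay above a KO library, KO replicate 2. Its log2 fold change was 0.46 ± 0.23 (95% interval -0.03 to 0.96, unadjusted p = 0.0631, edgeR adjusted p = 0.834), 0.27 without KO replicate 1 and 0.62 without KO replicate 2. Its counts were low, 223 to 394 per library, and 7.0% of its exon bases overlap Gm10575 on the opposite strand.

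Cd37 (chromosome 7, 45233632 to 45239115, minus strand), which encodes a tetraspanin of B cells and dendritic cells, was at 47.9, 40.6 and 30.0 CPM in WT and at 37.1, 32.1 and 26.7 CPM in KO. WT replicates 1 and 2 were above every KO library and WT replicate 3 was below KO replicates 1 and 2. The log2 fold change was -0.30 ± 0.21 (95% interval -0.75 to 0.16, edgeR adjusted p = 0.855), -0.13 without WT replicate 1 and -0.47 without WT replicate 3. The sums of the B-cell markers were 27.4, 51.3 and 22.4 CPM in WT and 13.9, 47.0 and 47.3 CPM in KO. The part of B-cell transcripts in the Cd37 values was not tested.

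Cd53 (chromosome 3, 106759921 to 106790149, minus strand), which encodes a tetraspanin found on most leukocytes, was at 32.0, 23.1 and 15.3 CPM in WT and at 20.3, 21.3 and 41.0 CPM in KO. It varied most of the 10 members, with an SD of log2 CPM of 0.504 over the libraries, with KO replicate 3 above every WT library and KO replicates 1 and 2 inside the WT range. Its log2 fold change was 0.21 ± 0.33 (95% interval -0.55 to 0.96, edgeR adjusted p = 0.947), and its sign turned without KO replicate 3 (-0.17) and without WT replicate 3 (-0.04).

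The libraries with the most Cd53, KO replicate 3 and WT replicate 1, were also those with the most monocyte or macrophage transcripts (745 and 403 CPM over the 14 markers, against 203 to 231 CPM in the other libraries). Lyz2 made up much of these sums, at 468 CPM in KO replicate 3, 192 CPM in WT replicate 1 and 106 to 136 CPM elsewhere. For 9 of the 14 markers these were the highest libraries, and for the other 5 they were not: Cd14 was highest in WT replicate 2 (28.4 CPM), Ly6c2 in KO replicate 1 (14.3 CPM) and Ccr2 in WT replicate 3 (5.35 CPM). Of the 14 markers, 11 had counts in every library and none was at 0 in all of them. Adgre1, which encodes the macrophage antigen F4/80, was at 26.6 CPM in KO replicate 3 and 19.6 CPM in WT replicate 1, and at 1.40 to 3.31 CPM in the others, while Fcgr1 was at 0 in KO replicate 1. The sums of 8 markers of type 2 conventional dendritic cells were highest in KO replicate 3 (227 CPM) and WT replicate 1 (163 CPM). They were 100 to 140 CPM in the other libraries. Of these 8 markers, 3 had counts in every library. Irf4 made up most of the sum in each library, at 181 CPM in KO replicate 3, 123 CPM in KO replicate 2 and 120 CPM in WT replicate 1. Clec10a was at 0 in KO replicate 3 and WT replicate 1. The part of either set of transcripts in the Cd53 values was not tested.

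Tspan3 (chromosome 9, 56131725 to 56165477, minus strand), a broadly expressed tetraspanin, was at 662, 883 and 707 CPM in the WT libraries and at 476, 742 and 591 CPM in the KO libraries. KO replicates 1 and 3 were below every WT library and KO replicate 2 lay between WT replicates 3 and 2. The log2 fold change was -0.32 ± 0.17 (95% interval -0.69 to 0.06, edgeR adjusted p = 0.834). It was -0.17 without KO replicate 1, -0.19 without WT replicate 2 and -0.51 without KO replicate 2.

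Tspan13 and Tspan33 differed least between the groups. Tspan13 was at 80.8, 89.1 and 84.4 CPM in WT and at 78.2, 105 and 80.9 CPM in KO, and KO replicate 2 was the highest of the 6 libraries and KO replicate 1 the lowest. Its log2 fold change was 0.06 ± 0.15 (95% interval -0.26 to 0.38, edgeR adjusted p = 0.964), and -0.10 without KO replicate 2. Tspan33 was at 242, 199 and 289 CPM in WT and at 202, 227 and 271 CPM in KO, so that the KO values lay inside the WT range (95% interval -0.42 to 0.29).

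**Figure D4:**
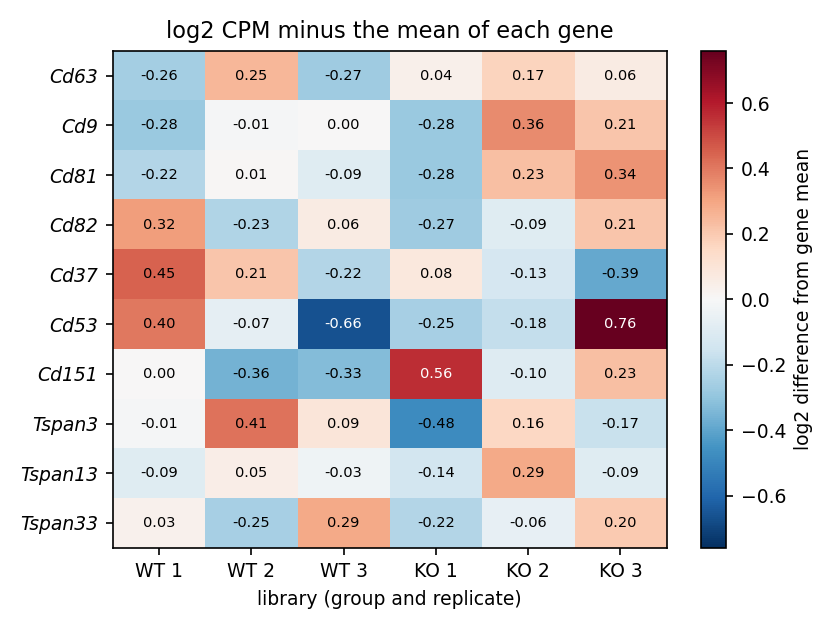
Log2 CPM of each member in each library minus the mean of that gene over the 6 libraries (colour and printed value). Cd9 and Cd81 run nearly in parallel, Cd53 spans the widest range, from -0.66 in WT replicate 3 to 0.76 in KO replicate 3, and KO replicate 1 holds the lowest value of 5 members.

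The balance between members was also compared, since a ratio within a library does not depend on the scaling of that library. Cd9, Cd63 and Cd81 together made up 46.3, 50.4 and 48.5% of the members' summed RPKM in WT and 54.3, 54.4 and 55.6% in KO. Tspan3 made up 26.0, 29.9 and 26.9% in WT and 20.7, 24.5 and 20.1% in KO. Neither share overlapped between the groups, but they are parts of 1 total, so that a lower share of Tspan3 by itself makes the other higher. Both were chosen after the values were seen, and single genes, by CPM and not as a share, did not overlap in 10.6% of cases. Of the other shares computed, that of Cd81 did not overlap either. Those of Cd63, of Cd37 with Cd53, and of Tspan3 with Cd81 and Cd63 overlapped between the groups. The means were 48.4 ± 2.02% and 54.7 ± 0.723% for the exosome marker genes and 27.6 ± 2.05% and 21.8 ± 2.40% for Tspan3, in WT and KO.

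Of the 9 ratios between Tspan3 and another member, 4 did not overlap between the groups (those of Cd63, Cd81, Cd9 and Tspan13), and 5 overlapped (those of Cd82, Cd37, Cd53, Cd151 and Tspan33). The log2 ratio of Cd63 to Tspan3 was -0.98, -0.89 and -1.09 in WT and -0.21, -0.72 and -0.50 in KO. That of Cd81 to Tspan3 was -0.79, -0.97 and -0.76 in WT and -0.37, -0.50 and -0.06 in KO, and that of Cd9 to Tspan3 was -2.65, -2.80 and -2.46 in WT and -2.17, -2.18 and -2.00 in KO. Over all 45 pairs of members the ratio did not overlap between the groups for 6 pairs (13.3%), of which 4 contained Tspan3, beside 10.5% of all pairs of genes tested. The share among members is therefore near that among all genes, and ratios that contain the same gene are not independent of each other.

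**Figure D5:**
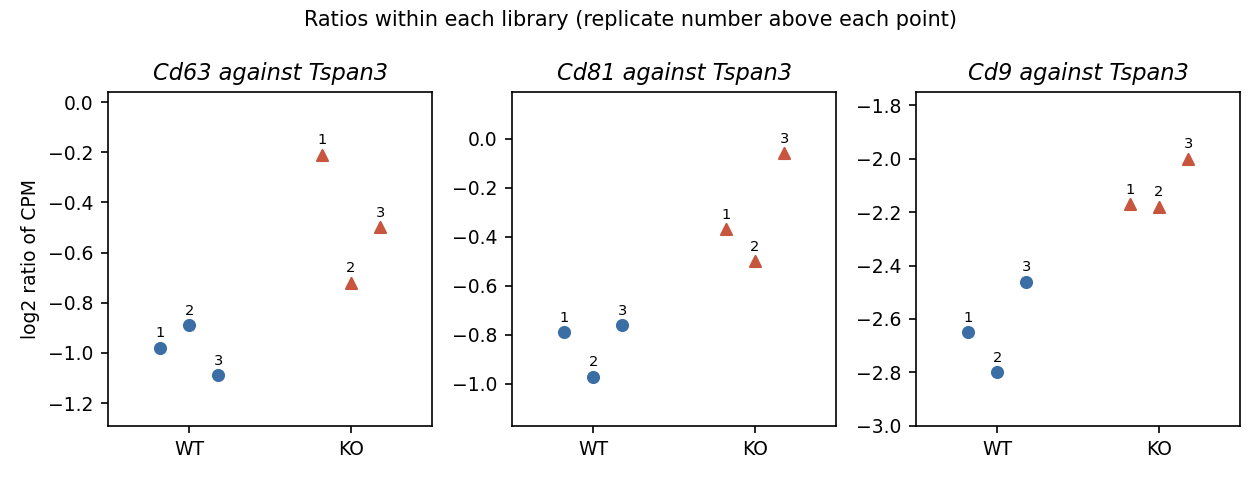
Log2 ratio of the CPM of Cd63, Cd81 and Cd9 to that of Tspan3 within each library (circles WT, triangles KO, replicate numbers above the points; the vertical axes differ and do not start at 0). In each panel the 3 KO libraries lie above the 3 WT libraries, with gaps of different width.

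For the 3 members that varied most over the libraries, the genes of most similar profile were sought among all genes tested, by the root mean square difference of centred log2 CPM over the 6 libraries. Closest to Cd53 were Sdad1 (0.0658) and Gstm1 (0.145). Closest to Cd151 were Wdr75 (0.0703) and Mettl2 (0.0847), and closest to Cd37 were Nprl3 (0.0702) and Tiam1 (0.0841). These distances are a description over 6 libraries and have no test.

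Genes of the surrounding pathways gave no call either. Of 37 tested genes of exosome formation (ESCRT subunits, Rab and Ral GTPases, SNARE proteins and syndecan-syntenin genes), 25 had a log2 fold change above 0 and the median was 0.10. None passed after adjustment, 1 was higher and 0 were lower at an unadjusted p under 0.05 (2.71% and 3.06% of all genes), and 4 higher and 1 lower did not overlap between groups (5.46% and 5.19% of all genes). The smallest p-values were those of Rab11a, a GTPase of recycling endosomes (0.36 ± 0.15), Ykt6, a SNARE protein (0.37 ± 0.17), and Chmp2a, an ESCRT-III subunit (0.30 ± 0.14), each on the log2 scale with an edgeR adjusted p of 0.834.

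Of 22 tested genes of the late endosome membrane and its sorting adaptors, 16 lay above 0, with a median of 0.11. None passed after adjustment, 2 were higher and 0 lower at an unadjusted p under 0.05, and 5 higher and 0 lower did not overlap between groups, beside the same 2.71% and 3.06%, and 5.46% and 5.19%, of all genes. Lamp2, a main glycoprotein of the lysosomal membrane, was at 110.5, 125 and 111 CPM in WT and at 131, 158 and 168.5 CPM in KO, with every KO library above every WT library (0.40 ± 0.14, edgeR adjusted p = 0.834). Ap3m1, a subunit of the AP-3 adaptor that carries CD63 to lysosomes, was at 73.2 ± 8.18 CPM in WT and, in KO, 94.6 ± 10.5 CPM (0.37 ± 0.14), but 29.8% of its exon bases overlap Vcl on the opposite strand. Bloc1s1, a subunit of BLOC-1, had a log2 fold change of 0.37 ± 0.20, and 55.9% of its exon bases overlap Rdh5 on the same strand, so its counts are uncertain.

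Among 17 partners of tetraspanins, 10 lay above 0, with a median of 0.02, and 0 had an unadjusted p under 0.05. Itga3, an integrin subunit that binds CD151, was at 29.2, 31.5 and 42.9 CPM in WT and at 22.0, 29.1 and 26.1 CPM in KO. Every KO library lay below every WT library, but WT replicate 1 and KO replicate 2 were nearly equal. The log2 fold change of Itga3 was -0.42 ± 0.20 (edgeR adjusted p = 0.834). Without overlap between groups, 1 partner was lower and 0 were higher, beside 5.19% and 5.46% of all genes. Itga6, another integrin subunit of this list, had a log2 fold change of -0.42 ± 0.45, and its groups overlapped. Adam10 and Itgb2, the beta subunit of leukocyte integrins (-0.24 ± 0.19), had the next smallest p-values.

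The other tetraspanins likewise gave no call, with 4 of 10 tested genes above 0 and a median of -0.05. Tspan17 had the smallest p of them, at 12.8 ± 2.50 CPM in WT and, in KO, 18.6 ± 5.68 CPM (log2 fold change 0.53 ± 0.27, edgeR adjusted p = 0.834), with overlapping groups. The intervals show how far this design reaches: for Cd151 and Cd53 they run to 0.96 on the log2 scale, so a missing call does not show that a member was the same in WT and KO.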

How the data were processed

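RNA was sequenced from 3 WT and 3 KO libraries of sorted cDC1s. The authors deposited raw counts per Ensembl gene, not normalized (32285 features, of which GENCODE M21 named 99.8%). HISAT2 2.0.5, HTSeq and mm10 are named in the submitters' processing notes, while the strand setting and the annotation release are not stated in the sources used. Genes were kept by filterByExpr (12568), TMM-normalized and compared between KO and WT by the quasi-likelihood F test of edgeR 4.0.16 (robust glmQLFit, legacy off) under R 4.3.3. P-values were adjusted by Benjamini-Hochberg, and calls needed an adjusted p under 0.05. Each SE was taken as the absolute log2 fold change over the root of F. RPKM was computed here from CPM and the union of exons. Named genes were all members, Vps33b, other tetraspanins with a mean of 5 CPM or more, the 3 genes of each pathway list with the smallest p, and the closest profiles. Other genes were named after their values were seen. The members and lists were chosen with earlier results of these data known. A gene of the partner list is not analysed here. Alternatives used DESeq2 1.42.0, limma-voom 3.58.1, other scalings and filters, a length offset, fits without each library in turn, and a block for replicate number. The script was tested on simulated data with 200 changed genes, 50 at each fold change. It recovered 18% of changes of 1.5-fold, 46% of 2-fold, 94% of 3-fold and 98% of 4-fold. The changed genes were drawn from those at 5 CPM or more. With 200 true changes the adjustment is less strict than where few genes change, so these percentages may be too high for the real comparison. Every pair of libraries within a group differed by more than sampling noise.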

Additional observations from a re-analysis of the deposited data

How the results depend on the processing

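No member was called under any of the 17 alternatives, and 163 of 170 member values kept their direction, as did 6 of 10 members in every alternative. The 7 that turned were Cd82 without WT replicate 1 (0.04), Cd53 without WT replicate 3 (-0.04) and without KO replicate 3 (-0.17), Tspan13 without KO replicate 2 (-0.10), and Tspan33 with the length offset (0.00), without WT replicate 3 (0.08) and without KO replicate 1 (0.03), and the cause was not tested. Leaving out a library moved Cd63 between 0.07 and 0.35, Cd9 between 0.06 and 0.38, Cd81 between 0.09 and 0.38, Cd37 between -0.47 and -0.13, Cd151 between 0.27 and 0.62, Tspan3 between -0.51 and -0.17, Cd82 between -0.25 and 0.04, Cd53 between -0.17 and 0.51, Tspan13 between -0.10 and 0.14, Tspan33 between -0.19 and 0.08, the median of the members between -0.04 and 0.16, the Vps33b value between -1.42 and -1.11, and the count of all genes called between 0 and 7, the highest without KO replicate 1. That count was 0 in the reported fit, 10 with DESeq2, 3 without a filter, 0 with limma-voom and 0 with the earlier quasi-likelihood method of edgeR, which was chosen after seeing the data. Without adjustment, 725 genes had a p under 0.05, 942 with the replicate number as a block, 1621 without KO replicate 1 and 376 without KO replicate 2. Same-numbered libraries did not deviate together (correlations of 0.00519, 0.0281 and -0.00126 over genes, and not every library correlated best with its own number), so the numbers were not read as pairs. With the replicate block 0 genes were called, the median of the members was 0.11 and the Vps33b value was -1.30.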
